A study of Mus musculus with 24 samples.

Results

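Renal M2 macrophages were compared with blood monocytes by the DNA barcodes that both carried, with 3 samples of each population, 1 per mouse. These 6 samples of the 24 in the series were chosen by the cell type in their titles and paired by mouse number. Donor haematopoietic stem cells came from bone marrow of C57BL/6 mice, were cultured, and were infected with the barcoding lentivirus pBC008 on day 5 after plating. After a further 4 days, GFP+ cells that were also Lin, Sca1+ and cKit+ in the labels' notation were sorted and mixed with CD45.2+ Lin, cKit+, Sca1- rescue cells. All recipients were CD45.2 male mice aged 5 weeks that had received 9 Gy of whole-body irradiation, and cells were collected 2 months after injection. Both populations of a mouse therefore share donor, culture, transplant and host, and there was no unirradiated group. Cells without a barcode, such as cells left from the host or derived from the rescue cells, give no reads. The markers that define M2 macrophages, the number of sorted cells and any washing of blood from the kidney are not given in the sources used here. DNA barcodes carry no gene expression, so neither label could be checked against marker genes.

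Monocytes are short-lived blood cells made in the bone marrow, and some enter tissues and become macrophages. Tissue macrophages can also persist and divide in place, so a macrophage population may hold descendants of stem cells that no longer supply the blood. M2 is the name for macrophages with features of alternative activation, which are linked with tissue repair. A barcode integrated in a stem cell passes to all its progeny, and a barcode found in both populations marks a common founder, although a founder that took up several viruses carries several barcodes.

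The samples held 9657419 to 15745444 reads. A share is a barcode's reads as a percentage of the reads of its sample. A barcode was called found in a sample when it held 0.01% or more, which was 966 to 1575 reads. For the leading barcode of each sample, the Wilson interval (95%) spanned 0.0160 to 0.0470 percentage points. A barcode with no reads could still have held up to 1.91e-05% to 3.11e-05%. No molecular identifiers were used in the PCR, and such limits speak of counting error alone. A share is a share of amplified copies, not of cells. A lower share can come from fewer cells of a clone or from more cells of other clones, and these cannot be told apart. The labels name no sequencing batch. Both M2 and monocyte samples are 1 per mouse, so spread between animals cannot be told apart from that of sorting, amplification and sequencing.

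The barcodes that show the comparison were of 3 kinds, each given for every mouse. Shared barcodes were those with the highest M2 share among barcodes within 4-fold of monocytes. Monocyte-poor barcodes had the highest M2 share among barcodes under 0.01% of monocytes, and monocyte-rich barcodes the highest monocyte share among those over 4-fold higher in monocytes. For each fold, 0.001 percentage points were added to both shares. Each barcode has 52 bases and is given as deposited. Capitals mark the shortest leading stretch that none of the other 3290 barcodes found in any of the 6 samples shares, so that the capitals alone tell it apart.
shared 1a: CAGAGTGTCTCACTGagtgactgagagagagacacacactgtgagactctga
shared 2a: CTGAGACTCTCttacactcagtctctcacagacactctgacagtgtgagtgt
shared 3a: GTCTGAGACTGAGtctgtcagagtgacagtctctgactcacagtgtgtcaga
monocyte-poor 1a: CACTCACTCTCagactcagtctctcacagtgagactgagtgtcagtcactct
monocyte-poor 1b: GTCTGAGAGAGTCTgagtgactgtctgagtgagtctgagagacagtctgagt
monocyte-poor 2a: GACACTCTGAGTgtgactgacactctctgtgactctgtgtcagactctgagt
monocyte-poor 2b: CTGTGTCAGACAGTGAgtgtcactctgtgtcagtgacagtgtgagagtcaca
monocyte-poor 3a: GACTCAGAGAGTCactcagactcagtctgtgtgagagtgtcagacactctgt
monocyte-poor 3b: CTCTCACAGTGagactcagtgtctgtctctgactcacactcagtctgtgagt
monocyte-rich 1a: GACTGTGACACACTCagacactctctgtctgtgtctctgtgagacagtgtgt
monocyte-rich 2a: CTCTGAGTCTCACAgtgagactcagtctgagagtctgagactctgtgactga
monocyte-rich 3a: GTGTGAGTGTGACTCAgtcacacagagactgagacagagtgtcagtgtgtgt
The number in each name is the mouse. Any 2 of the 24 barcodes named by the rule differed at 17 or more of the 52 positions, and 22 of the 24 alternated G or C with A or T at every position. Of the 12 printed, shared 2a is the one that breaks this alternation.

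The shared barcodes led the M2 repertoire and were also major barcodes of monocytes. Shared 1a was the most abundant barcode of M2 macrophages in mouse 1, with 2.52% of M2 reads and 4.98% of monocyte reads. Shared 2a held 7.79% of M2 and 10.0% of monocyte reads in mouse 2, where it was the most abundant in M2 macrophages. Shared 3a held 2.69% of M2 and 9.65% of monocyte reads in mouse 3. Each of these 3 had a lower share in M2 macrophages than in monocytes, by 1.28 to 3.59 times. Of the other named shared barcodes, shared 2b went the other way, with 1.85% of M2 and 0.733% of monocyte reads.

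The monocyte-rich barcodes were the leading monocyte clones. They were found in renal M2 macrophages at lower shares, which the rule that chose them requires. Monocyte-rich 1a held 9.57% of monocyte and 1.71% of M2 reads. Monocyte-rich 2a held 11.6% of monocyte and 2.58% of M2 reads. Monocyte-rich 3a held 18.0% of monocyte and 4.06% of M2 reads, and was still the most abundant M2 barcode of mouse 3.

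The monocyte-poor barcodes, chosen for a low monocyte share, were large clones of renal M2 macrophages whose monocyte reads ranged from 10 to 857. In renal M1 macrophages they held 0.000442% to 0.0451% of reads. Monocyte-poor 3a held 1.17% of M2 reads of mouse 3, from 134484 reads, but 26 monocyte reads, which is 0.000253% (Wilson 95% interval 0.000173% to 0.000371%). It ranked 10 among M2 barcodes and 980 among monocyte barcodes. Monocyte-poor 3b held 0.502% of M2 reads and 10 monocyte reads. In mouse 1, monocyte-poor 1a and 1b held 0.532% and 0.487% of M2 reads, with 36 and 20 monocyte reads. Monocyte reads of other mice gave like counts for the same sequences, 36 and 37 for monocyte-poor 1a and 41 and 43 for monocyte-poor 3a. Each mouse also had a named barcode with more monocyte reads than that. Monocyte-poor 2a and 2b held 0.589% and 0.577% of M2 reads with 806 and 259 monocyte reads, against 25 to 44 in the monocytes of the other mice. Monocyte-poor 1c had 857 against 37 and 40, and monocyte-poor 3c had 327 against 66 in both. Monocyte-poor 2c had 33 against 44 and 38.

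**Figure D1:**
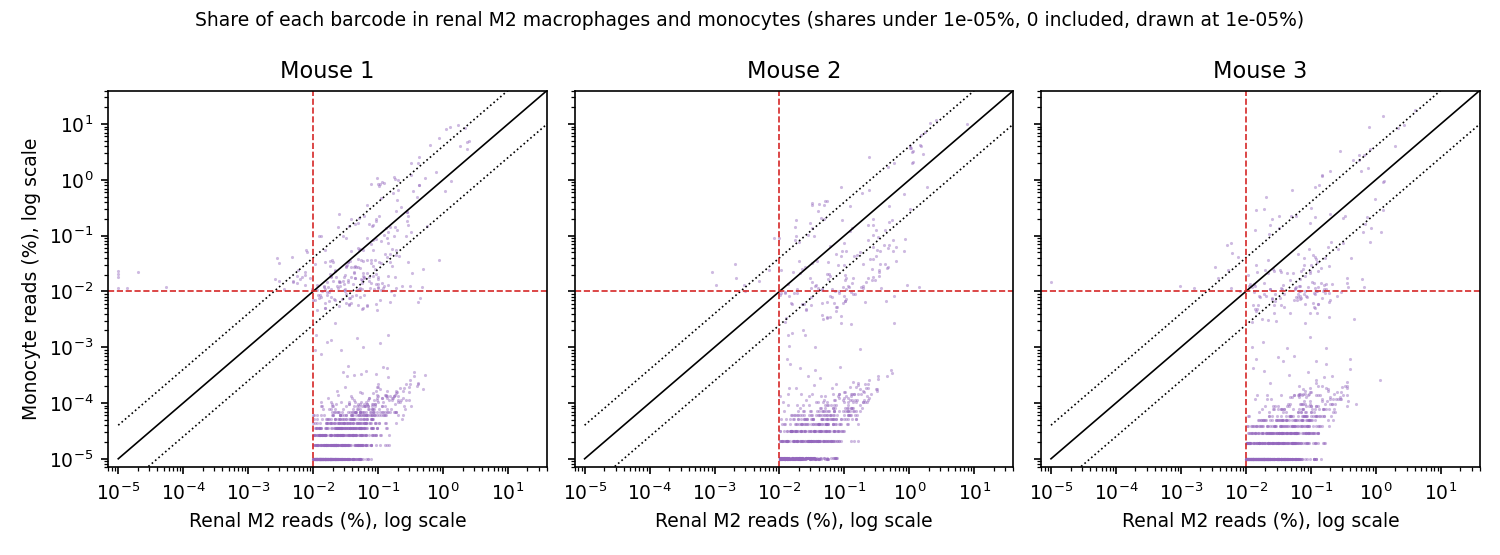
Share of each barcode in renal M2 macrophages (x axis, percent of reads, log scale) and in monocytes of the same mouse (y axis, percent of reads, log scale), for barcodes at 0.01% or more in either sample. The solid line marks equal shares, dotted lines 4-fold differences, dashed lines 0.01%. In each mouse an upper cloud runs along the diagonal and a lower cloud lies under 0.001% of monocyte reads, with few barcodes between 0.001% and 0.003%. Shares below the axis are drawn at its lower edge.

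M2 macrophages held far more clones than monocytes. Barcodes found numbered 1353, 893 and 1181 in M2 macrophages of mice 1 to 3, and 229, 148 and 134 in their monocytes. The lowest M2 sample lay above the highest monocyte sample. The ratio of geometric means was 6.80 (exact permutation p = 0.1, two-sided, n = 3 against 3, the smallest possible, adjusted p = 0.281 over 9 tests). It was 3.45 with presence at 0.1%. The effective number of barcodes (Shannon entropy, exponentiated) was 736, 355 and 610 in M2 macrophages and 42.4, 30.9 and 23.0 in monocytes. That was 17.4-fold higher in M2 macrophages, again without overlap (exact permutation p = 0.1, adjusted p = 0.281). With the inverse Simpson index, which gives more weight to leading barcodes, it was 8.94-fold. The 10 leading barcodes held 17.8%, 23.5% and 18.5% of M2 reads, against 62.3%, 65.7% and 75.4% of monocyte reads (exact permutation p = 0.1, adjusted p = 0.281). With the mouse as a block, exact sign-flip permutation over the 3 mice gave p = 0.25 for each of these measures, the smallest possible.

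Monocyte clones were nearly all found in M2 macrophages, but most M2 clones were not found in monocytes. Barcodes found in M2 macrophages held 98.4%, 98.5% and 98.4% of the monocyte reads of mice 1 to 3. Barcodes found in monocytes held 42.0%, 56.3% and 38.7% of the M2 reads. The difference was 52.8 ± 9.32 percentage points (SD, n = 3), with the same sign in 3 of 3 mice (exact sign-flip permutation p = 0.25, two-sided, the smallest possible, adjusted p = 0.281). By number, 202 of 1353, 138 of 893 and 122 of 1181 M2 barcodes were found in monocytes, or 13.6% ± 2.82 (SD, n = 3). Of the monocyte barcodes, 90.8% ± 2.52 were found in M2 macrophages (SD, n = 3). Monocytes had only 229, 148 and 134 barcodes at the limit, which caps how many M2 barcodes could be found there. The contrast by number therefore follows in part from the numbers of barcodes.

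Monocytes of the other mice gave the background for such a match. They held 12 to 21 of the M2 barcodes of a mouse, with 1.27% to 16.8% of its M2 reads. The high values, 8.46% and 16.8%, were both from mouse 2, whose shared 2a reached 0.0149% and 0.0245% in monocytes of the other mice. These shares lie just above the 0.01% used to call a barcode found. Whether reads passed between libraries was not tested. The overlap of the repertoires, which adds up the lower of both shares for each barcode, was 0.320 ± 0.0583 within a mouse (SD, n = 3) and 0.0104 ± 0.0013 between mice (SD, 6 pairs).

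The share of M2 barcodes found in monocytes was highest in the most abundant part of the M2 repertoire. M2 barcodes were divided by their share of M2 reads. There were 10, 18 and 10 barcodes at 1% or more in mice 1 to 3, which held 22.8% ± 7.98 of M2 reads (SD, n = 3). Between 0.1% and 1% there were 175, 164 and 189 with 39.7% ± 2.28 of the reads, and between 0.01% and 0.1% there were 1168, 711 and 982 with 32.5% ± 7.42 (SD, n = 3 each). The remaining barcodes, each under 0.01%, held 5.05% ± 0.790.

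All 10, all 18 and 9 of 10 barcodes at 1% or more were found in monocytes of their mouse. Between 0.1% and 1% it was 76 of 175, 67 of 164 and 56 of 189, or 38.0% ± 7.34 (SD, n = 3). Between 0.01% and 0.1% it was 116 of 1168, 53 of 711 and 57 of 982, or 7.73% ± 2.08. The share found thus differed between these ranges in the same order in every mouse, with no overlap between ranges. The limit in monocytes was 0.01% for every range. To be found, a barcode of a lower range had to hold a larger part of its M2 share in monocytes. The order therefore follows in part from this limit. Monocytes of the other mice held 9.81% ± 9.72, 0.828% ± 0.510 and 1.41% ± 0.50 of the barcodes of the same ranges (SD over the 3 mice, mean of the other 2 mice each). Other blood cells of the same mouse gave the same order of ranges under the same limit. Neutrophils held 94.8% ± 5.01, 30.1% ± 4.59 and 5.49% ± 1.18, T cells 96.7% ± 5.77, 28.4% ± 4.94 and 4.86% ± 1.80, and B cells 100%, 57.1% ± 0.924 and 21.0% ± 2.69 (SD, n = 3 each). B cells shared more with M2 macrophages than monocytes did in each mouse, a difference that was not tested. Barcodes found in B cells held 58.5% ± 6.29 of M2 reads, and the overlap was 0.402 ± 0.0105 (SD, n = 3). B cells also had more barcodes found, 475, 296 and 366 against 229, 148 and 134 in monocytes of mice 1 to 3. The part of these numbers in the match was not tested.

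Weighted by reads, 97.9% ± 3.66 of the M2 reads at 1% or more, 49.9% ± 5.52 of those between 0.1% and 1%, and 10.4% ± 3.18 of those between 0.01% and 0.1% were in barcodes found in monocytes (SD, n = 3 each). The highest of these ranges exceeded the lowest by 87.5 ± 2.34 percentage points, in 3 of 3 mice (exact sign-flip permutation p = 0.25, the smallest possible, adjusted p = 0.281). Part of this difference also follows from the fixed limit in monocytes. Under 0.01% of M2 reads, 1.38% ± 0.544 of the barcodes between 0.001% and 0.01% were found in monocytes, which was below the 4.31% ± 1.09 found in monocytes of other mice (SD, n = 3 each). Every barcode of this range was itself under the 0.01% limit, so one with an equal share in monocytes counted as not found. The comparison therefore cannot show whether this range matches monocytes.

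Rank in place of M2 share, with the same 0.01% limit in monocytes, gave the same order. Rank is set by the same M2 share, so it describes the order more finely and is no separate check. Of the 10 leading M2 barcodes 96.7% ± 5.77 were found in monocytes, of the next 40 it was 68.3% ± 14.6, of the next 50 it was 38.7% ± 12.1, and of the next 100 it was 24.7% ± 7.23 (SD, n = 3 each). The next 300 gave 12.6% ± 5.10 and the 500 after those gave 5.80% ± 2.96. At ranks 11 to 50, mouse 2 had the highest share, 34 of 40, and mouse 3 the lowest, 23 of 40.

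**Figure D2:**
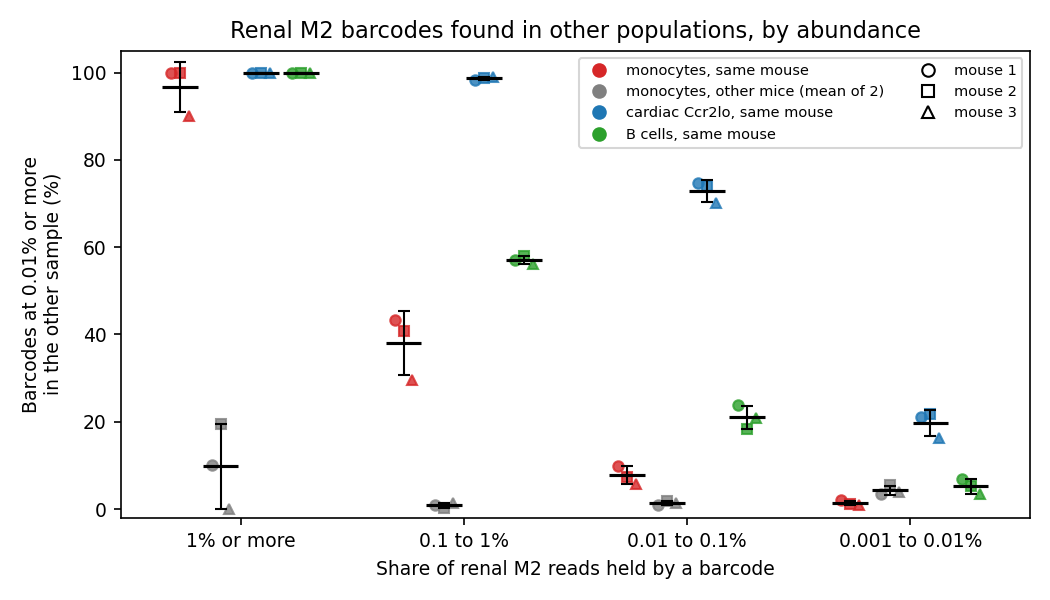
Percentage of renal M2 barcodes found at 0.01% or more in another sample (y axis), by the share of M2 reads they held (x axis), for monocytes, cardiac Ccr2lo macrophages and B cells of the same mouse and for monocytes of the other mice. Points are mice, bars the mean and SD over 3 mice. The share found in own monocytes is 96.7%, 38.0% and 7.73% in the upper 3 ranges, while that in Ccr2lo macrophages is 100%, 98.7% and 72.9%.

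The leading barcodes made most of the overlap with monocytes. Of the overlap of 32.9%, 37.3% and 25.7% of reads in mice 1 to 3, barcodes at 1% or more of M2 reads gave 17.0, 28.8 and 14.5 percentage points. Those between 0.1% and 1% gave 11.5, 6.10 and 9.07 points, and those between 0.01% and 0.1% gave 3.74, 1.76 and 1.63 points. Mouse 2 had the largest overlap and the most barcodes at 1% or more.

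Levels matched less well than presence. Of the barcodes found in M2 macrophages or in monocytes, 84.6%, 87.3% and 90.9% in mice 1 to 3 were over 4-fold higher in M2 macrophages, and 2.9%, 2.99% and 2.77% were over 4-fold higher in monocytes. Of these barcodes, 1151, 755 and 1059 entered through M2 macrophages alone, so the uneven split follows in part from how they were chosen. Barcodes within 4-fold held 27.5%, 30.7% and 16.2% of the M2 reads. A further 8.37%, 9.71% and 10.5% of M2 reads were in barcodes over 4-fold higher in monocytes. Barcodes found in monocytes but over 4-fold lower there held 6.29%, 16.1% and 12.3%, and those over 4-fold lower and under 0.01% in monocytes held 52.1%, 39.3% and 55.8%. The last class was the largest in every mouse. The same 4 classes held 43.5%, 54.0%, 0.646% and 0.209% of the monocyte reads in mouse 1, so that monocyte reads lay almost wholly in the first and the second. These counts come from 1 sample of each population per mouse and have no replicate check within a mouse.

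**Figure D3:**
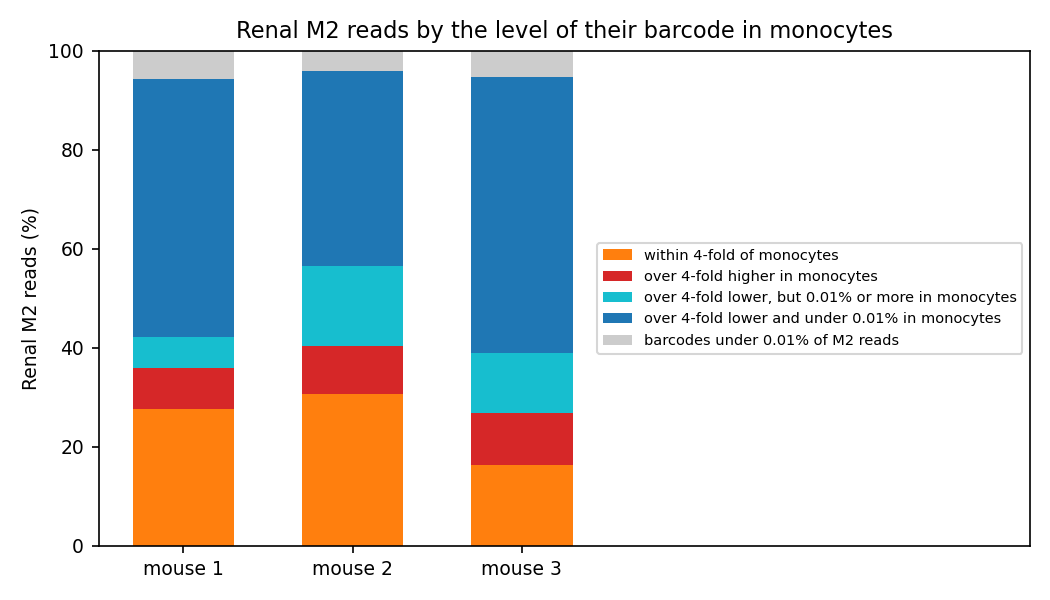
Renal M2 reads of each mouse (y axis, percent of reads) divided by the level of their barcode in monocytes of the same mouse. Barcodes over 4-fold lower and under 0.01% in monocytes hold 52.1%, 39.3% and 55.8% of the reads, and barcodes within 4-fold hold 27.5%, 30.7% and 16.2%.

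Within the ranges, the middle one was split. Of the barcodes at 1% or more of M2 reads, 7 of 10, 12 of 18 and 5 of 10 were within 4-fold of monocytes, and 3, 5 and 2 were over 4-fold higher in monocytes. Between 0.1% and 1%, 38, 24 and 15 were within 4-fold, 13, 1 and 12 were over 4-fold higher in monocytes, and 25, 42 and 29 were over 4-fold lower but found there. The other 99, 97 and 133 were over 4-fold lower and under 0.01% in monocytes.

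Monocyte shares of the M2 barcodes fell into separate groups rather than along a slope. Over the 3 mice, 3427 barcodes were found in M2 macrophages. Of these, 2763 held under 0.0003% of the monocyte reads of their mouse, 41 held 0.0003% to 0.001% and 23 held 0.001% to 0.003%. Then 138 held 0.003% to 0.01% and 198 held 0.01% to 0.03%. The limit of 0.01% therefore passes through the lower edge of the upper group, and few barcodes lie near 0.001%. Barcodes under 0.01% of monocytes held 54.3% ± 9.37 of M2 reads (SD, n = 3).

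For the typical barcode under 0.01% of monocytes, the monocyte share was like that of the same sequence in other animals. Of the M2 barcodes at 0.1% or more with under 0.01% of monocyte reads, 99, 97 and 134 in mice 1 to 3, the median monocyte share was 0.491 to 0.700 per 1000 of the M2 share in the own mouse. In monocytes of the other mice it was 0.460 to 0.949 per 1000. The ranges overlapped. A median does not speak for members at the upper end, such as monocyte-poor 1c and 2a above. For the M2 barcodes found in monocytes, at 0.1% or more of M2 reads, it was 415 ± 270 per 1000 in the own mouse (SD, n = 3). Of all M2 barcodes found in M2 macrophages but not in monocytes, 179, 124 and 252 had a monocyte count of 0.

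The large monocyte clones were all present in M2 macrophages, at a reduced and uneven level. There were 19, 18 and 17 barcodes at 1% or more of monocyte reads, with 75.7%, 85.6% and 86.8% of those reads, and they held 20.2%, 29.0% and 18.1% of M2 reads. All 54 had a lower share in M2 macrophages than in monocytes, with ratios from 0.0846 to 0.778. They were chosen by the monocyte share, which is the denominator of the ratio, so ratios below 1 are a description. The median ratio was 0.179, 0.281 and 0.225 in mice 1 to 3. The highest ratio exceeded the lowest 7.38, 8.19 and 5.66 times.

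The same clones had less uneven ratios in neutrophils and in renal M1 macrophages. The SD of the log2 ratio to monocytes was 0.778 ± 0.0901 in M2 macrophages, against 0.237 ± 0.0539 in renal M1 macrophages and 0.306 ± 0.0869 in neutrophils (SD over n = 3 mice each). It was 1.23, 0.545 and 1.23 in cardiac Ccr2hi and 1.33, 0.418 and 1.30 in Ccr2lo macrophages of mice 1 to 3. These ratios share the monocyte sample as denominator. In each mouse the M2 value lay above those of M1 macrophages and neutrophils.

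**Figure D4:**
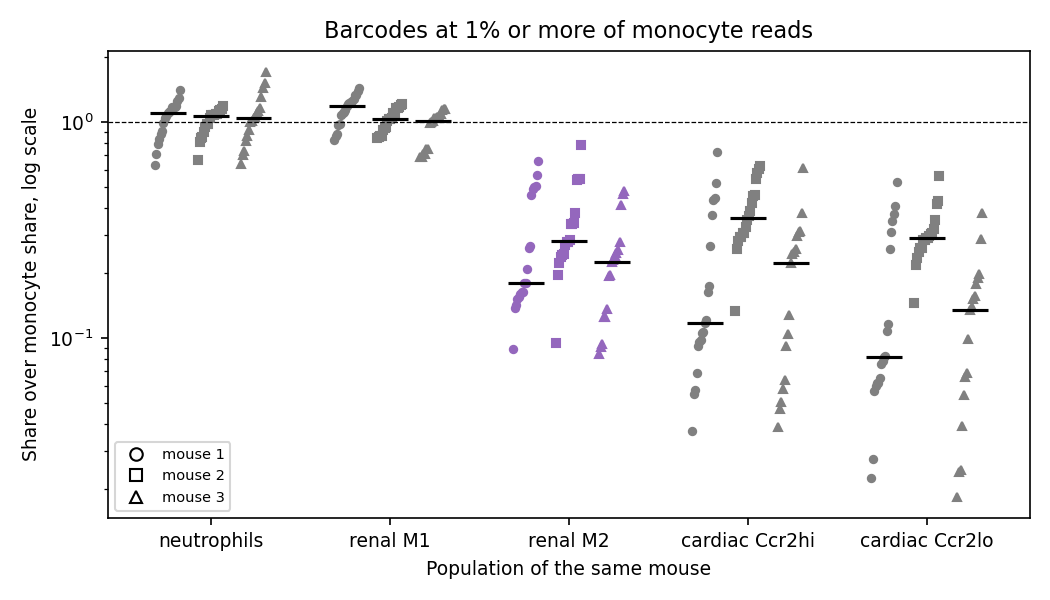
Ratio of the share in each population to the monocyte share of the same mouse (y axis, log scale) for the 19, 18 and 17 barcodes at 1% or more of monocyte reads. Points are barcodes, lines the median of a mouse. In neutrophils and renal M1 macrophages the medians average 1.07, while in M2 macrophages they are 0.179, 0.281 and 0.225.

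In each mouse the median ratio of M2 to monocyte share rose from the highest range of the monocyte share down to 0.01% to 0.1%. At 1% or more of monocyte reads it was 0.179, 0.281 and 0.225. Barcodes between 0.1% and 1% of monocyte reads, 49, 34 and 29 in number, were all found in M2 macrophages, with a median ratio of 0.509, 0.339 and 0.317. Between 0.01% and 0.1% of monocyte reads, 134 of 161, 86 of 96 and 76 of 88 were found, and the median ratio of M2 to monocyte share was 1.69, 4.19 and 3.07. Between 0.001% and 0.01% the median ratio was lower again, at 0.422, 0.915 and 0.470. In this last range 53.7 ± 4.73 barcodes were found in M2 macrophages of the own mouse (SD, n = 3). M2 macrophages of the other mice held a like number, 55.3 ± 21.1 and 35.7 ± 14.2, so this range cannot be told from that background. The ratio uses the share that sets the range, so these values are a description.

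The M2 barcodes not found in monocytes were mostly barcodes of cardiac macrophages, as were those found in monocytes. Of those at 0.1% or more of M2 reads, 97.8% ± 2.00 were found in Ccr2hi and 98.1% ± 0.317 in Ccr2lo macrophages of the same mouse (SD, n = 3 each), and 89.2% ± 3.49 were within 4-fold of Ccr2lo macrophages. Monocyte-poor 3a held 0.502% of Ccr2hi and 0.616% of Ccr2lo reads. Monocyte-poor 1a held 0.133% and 0.258%. Between 0.01% and 0.1% of M2 reads, 66.8% ± 5.14 were found in Ccr2hi and 71.4% ± 2.05 in Ccr2lo macrophages. For M2 barcodes that were found in monocytes the values were higher. At 0.1% or more, 99.6% were found in Ccr2hi and 99.6% in Ccr2lo macrophages, and 97.8% were within 4-fold of Ccr2lo macrophages. Between 0.01% and 0.1%, it was 92.1% in Ccr2hi and 90.5% in Ccr2lo macrophages.

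Other blood cells held fewer of them, and B cells more than T cells or neutrophils. The number of barcodes found differed between these populations, with a mean of 379 in B cells, 123 in T cells and 128 in neutrophils, against 1072 in Ccr2hi and 1140 in Ccr2lo macrophages, and its part in the matches was not tested. At 0.1% or more of M2 reads, 34.9% ± 5.50 of the barcodes not found in monocytes were found in B cells, 5.93% ± 2.03 in T cells and 5.14% ± 0.0873 in neutrophils (SD, n = 3 each). For the M2 barcodes that were found in monocytes these values were 94.2% ± 1.22, 70.8% ± 2.17 and 76.0% ± 8.18. B cells descend from lymphoid progenitors and are renewed more slowly than monocytes. Monocyte-poor 3a held 0.0537% of B cell reads, while monocyte-poor 3b, with 0.000263%, was not found there.

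Weighted by reads, 92.7% ± 1.38 of the M2 reads whose barcode was found in M2 macrophages but not in monocytes were in barcodes of cardiac macrophages, and 28.5% ± 4.43 in barcodes of neutrophils, B cells or T cells (SD, n = 3 each). The difference was 64.2 ± 4.50 percentage points, in the same direction in 3 of 3 mice. These barcodes were chosen for a low share in one kind of blood cell, so the difference is a description. For M2 barcodes found in monocytes the values were 99.8% ± 0.218 and 98.2% ± 0.373 (SD, n = 3 each). The difference was 27.4 points with 0.1% in place of 0.01% for presence. Barcodes found neither in cardiac macrophages nor in neutrophils, B cells, T cells or renal M1 macrophages numbered 187, 113 and 179 and held 6.55% ± 1.06 of these reads.

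Renal M1 macrophages, the other population of the same kidneys, held few of these barcodes and differed between mice. They held 31 of 99 in mouse 1, 3 of 97 in mouse 2 and 20 of 134 in mouse 3, at 0.1% or more of M2 reads. None of them was within 4-fold of its M2 share in M1 macrophages. Of the M2 barcodes at 0.1% or more that were found in monocytes, M1 macrophages held 63 of 86, 57 of 85 and 42 of 65. M1 macrophages had 226, 94 and 120 barcodes found in all in mice 1 to 3. The part of these numbers in the matches was not tested. How completely the sort parted M1 from M2 cells was not tested.

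**Figure D5:**
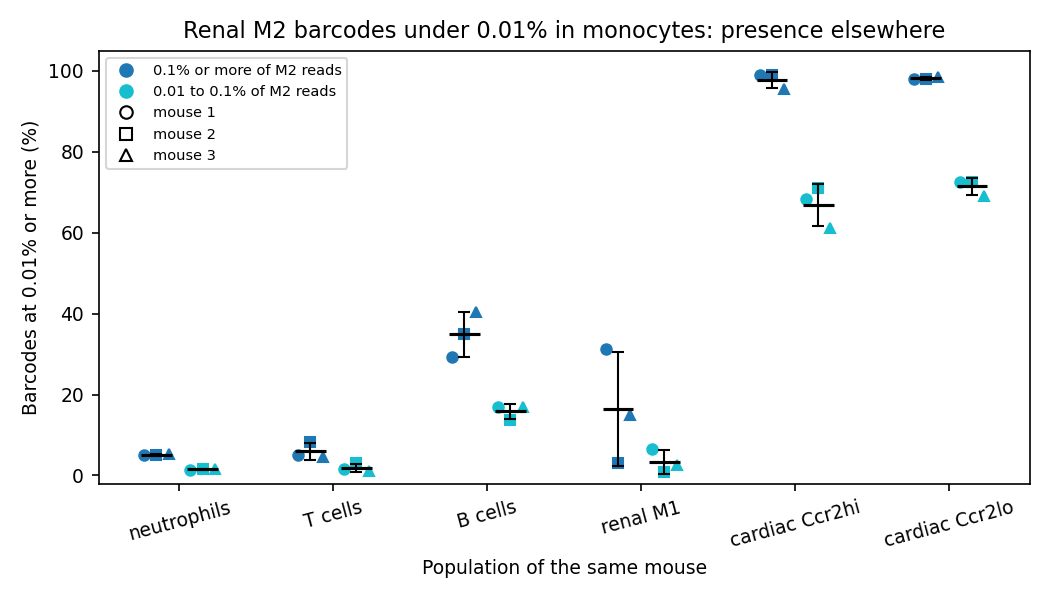
Percentage of the renal M2 barcodes under 0.01% in monocytes that were found at 0.01% or more in another population of the same mouse (y axis), for barcodes at 0.1% or more (blue) and 0.01 to 0.1% (cyan) of M2 reads. Points are mice, bars the mean and SD over 3 mice. In the higher range 98.1% are found in Ccr2lo macrophages, 34.9% in B cells and 5.14% in neutrophils.

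Cardiac macrophages showed the same order of ranges under the same fixed limit. In cardiac Ccr2hi macrophages 97.8% ± 3.85, 42.8% ± 7.15 and 6.93% ± 1.87 of the barcodes in the same 3 ranges of their own share were found in monocytes (SD, n = 3 each). In Ccr2lo macrophages it was 97.6% ± 4.12, 40.4% ± 8.39 and 6.57% ± 2.49. In renal M1 macrophages it was 100%, 100% and 52.7% ± 26.9.

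Barcodes found in monocytes held 45.7% ± 9.37 of M2 reads, 50.1% ± 8.45 of Ccr2hi, 43.7% ± 8.19 of Ccr2lo and 97.4% ± 0.976 of M1 macrophage reads (SD, n = 3 each). The difference of M2 from M1 macrophages was -51.7 ± 8.54 points, lower in 3 of 3 mice (exact sign-flip permutation p = 0.25, adjusted p = 0.281). The difference from Ccr2hi macrophages was -4.48 ± 4.74 points, lower in 3 of 3 mice (exact sign-flip permutation p = 0.25, adjusted p = 0.281). That from Ccr2lo macrophages was 1.94 ± 2.69 points, higher in 2 of 3 mice (exact sign-flip permutation p = 0.5, adjusted p = 0.5). Both cardiac differences were smaller than their SD. Without mouse 3, the difference from Ccr2hi was -1.82 points. The difference from Ccr2lo was 1.01, 1.32 and 3.49 points without mouse 1, 2 or 3. All these comparisons share the monocyte samples.

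Single barcodes could hardly be tested across mice, since a barcode belongs as a rule to 1 animal. With edgeR's quasi-likelihood test, 0 of 976 barcodes passed a Benjamini-Hochberg adjusted p under 0.05 (0.0%), and 15 had an unadjusted p under 0.05. With the mouse as a block it was also 0 of 976 (0.0%), with 13 unadjusted. DESeq2 called 92 of 976 (9.43%), each higher in M2 macrophages. The filter kept barcodes with enough reads in at least 3 of the 6 samples, of whichever population. A barcode of 1 mouse has 1 sample of each population there, so it passed only with reads in samples of other mice. M2 macrophages had more barcodes found, so the direction of the DESeq2 calls is a description. Of the 976 barcodes, 830 reached 0.01% in 1 mouse and 13 in all 3.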

How the data were processed

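Barcode read counts per sample were used as deposited by the authors, as whole numbers that were not normalized. Per the labels' protocols, barcodes were amplified from genomic DNA in 18 PCR cycles and indexed in 9 to 11 more. The tool and filters that turned reads into barcodes are not given in the sources used here. Shares were computed from each sample's total. The mouse number pairs samples of the same animal: same-numbered M2 and monocyte samples overlapped by 0.257 to 0.373, others by 0.00854 to 0.0119. Group differences were tested by exact permutation and paired ones by exact sign flips, with Benjamini-Hochberg adjustment over 9 tests. Single barcodes were tested with edgeR 4.0.16 (quasi-likelihood, TMM) and DESeq2 1.42.0 in R 4.3.3. Other steps used Python 3.11.15, numpy 2.4.6, scipy 1.17.1 and pandas 2.3.3, and scripts were tested on simulated data. Named barcodes were, per mouse, 3 shared and 3 monocyte-poor ones by M2 share and 2 monocyte-rich ones by monocyte share. The members, lists and rules were chosen with earlier results of these data known. No 2 of the 6 samples were duplicates. Alternatives covered depth, sequence errors, low counts, reads from other mice, the base pattern, presence and fold limits, normalization and leaving out each mouse.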

Additional observations from a re-analysis of the deposited data

How the results depend on the processing

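All 95 alternatives of the tested measures kept their direction; the other 33 were of shares and counts that have none. M2 reads under the limit in monocytes came to 67.7% with presence at 0.1%. M2 reads within the fold limit came to 12.3% with 2-fold, 39.4% with 10-fold and 35.2% with 0.01 percentage points added. With presence at 0.1%, barcodes found differed 3.45-fold and cardiac minus other blood cells was 27.4 points. The inverse Simpson index gave 8.94-fold. DESeq2 called 92 of 976 barcodes (9.43%) where edgeR called 0. Pairing by mouse (replicate block) left the values at 17.4-fold, 6.80-fold and -47.8 points, and edgeR with the block called 0. Leaving out each mouse gave 14.1 to 21.5-fold for the effective number, 5.97 to 7.29-fold for barcodes found, and -50.7 to -43.3 points for the leading 10. It gave 21.9% to 29.1% within 4-fold, 50.8% to 59.7% under 0.01%, and 49.3 to 58.1 points between monocyte and M2 reads found. The difference between ranges was 86.1 to 88.2 points, and 89.9 with ranges set by the cardiac share. Cardiac minus other blood cells gave 62.4 to 66.7 points. M2 minus Ccr2hi gave -6.39 to -1.82, minus Ccr2lo 1.01 to 3.49, and minus M1 -56.5 to -48.3 points. With presence at 0.1%, the difference from Ccr2hi was -0.949 and that from Ccr2lo 6.82 points, and with 0.001% the latter was 0.0953. Chosen after seeing the data, presence at 10 times the share in other mice gave 48.7 points between monocyte and M2 reads found. With 3 mice, no permutation or sign-flip test could pass 0.05, and reads without molecular identifiers limit what a share says of cells. The cause of these shifts was not tested.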
